A study of Mus musculus with 4 samples.

Results

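Integrins are receptors of the cell surface, each made of an alpha and a beta subunit, that tie the extracellular matrix to the actin cytoskeleton. In skeletal muscle the laminin receptors anchor satellite cells and myofibers to the basal lamina, and beta 1, the partner of most alpha subunits, is needed for myoblast fusion. The alpha subunit sets the ligand: alpha 3, alpha 6 and alpha 7 bind laminin, alpha 5 and alpha v bind matrix proteins through the RGD tripeptide, and alpha 9 binds tenascin-C and VCAM-1. The ATAC-seq peaks around 10 integrin genes, of 22350 protein-coding genes in the annotation, are described here: Itga3, Itga5, Itga6, Itga7, Itga9, Itgav, Itgb1, Itgb2, Itgb3 and Itgb5. A peak was taken as belonging to a gene when it lay in the gene or within 50 kb on either side. This gave 50 of the 25775 peaks of the WT list and 8 of the 3836 peaks of the Tet2 KO list.

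ATAC-seq marks open chromatin, which the transposase Tn5 cuts. It was applied to primary myoblasts of C57BL/6 mice, WT or with a constitutive deletion of Tet2 exon 3, with 2 samples of each genotype and 5000 cells per library. Young adult male mice were the default in the study's methods, and the labels give no age. Satellite cells of hindlimb skeletal muscle were sorted as PI-CD45-CD11b-CD31-Sca1- and CD34+ Integrin a7+, so the product of Itga7 was itself a sort marker in both genotypes, and were grown on type I collagen, an integrin ligand, for 3 days to become MyoD+ myoblasts. Tet2 is a dioxygenase that oxidises methylated cytosine at CpG sites, the first step of active demethylation. Each genotype has 1 peak list, named for 1 library that could not be tied to a replicate, so no difference between the genotypes could be tested. Intervals are Wilson 95% intervals and cover counting error only. A list was given its genotype from its name, and its total equals the sum of the peak classes drawn in the paper. MACS2 numbers its peaks along the genome, and 9707 of 35482 WT and 4403 of 8239 Tet2 KO numbers are absent. Neither list is thus complete, and a larger part of the Tet2 KO numbers is absent. The genome-wide background was taken as the most frequent background solved at the listed peaks. In fragments per position it was 0.649 for WT and 1.38 for Tet2 KO, which is 2.13 times the WT value. Of the myoblast markers, Myod1, Des and Chrna1 had a promoter peak in both lists (3 of 7 markers). Of all genes 30.3% had a WT and 7.92% a Tet2 KO promoter peak. Of 5 leukocyte and 3 fibroadipogenic markers 0 had a promoter peak in either list, and of 4 endothelial markers Pecam1 had a promoter peak in WT and 0 in Tet2 KO. A WT peak within 50 kb was present at 6 of 7 myoblast, 5 of 5 leukocyte, 4 of 4 endothelial and 1 of 3 fibroadipogenic markers. Of all protein-coding genes 74.3% had one.

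The sequences of the peaks that carry the results are shown as 200 bp centred on the WT summit (mm9, plus strand). The first set are CpG-rich promoters that were open in WT, with the CG dinucleotides in capitals. The windows of Itgb1 and Pdk2, the neighbour of Itga3, also had a Tet2 KO peak and hold 20 and 19 CpG sites. The window of Itgav had no Tet2 KO peak and holds 22.
Itgb1 promoter, chr8:131209373-131209572: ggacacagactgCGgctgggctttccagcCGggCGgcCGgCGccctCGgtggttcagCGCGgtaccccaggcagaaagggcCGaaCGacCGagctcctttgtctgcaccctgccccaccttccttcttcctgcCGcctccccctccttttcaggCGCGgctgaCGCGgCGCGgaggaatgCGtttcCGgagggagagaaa
Pdk2 promoter, 35.4 kb after the Itga3 start, chr11:94902649-94902848: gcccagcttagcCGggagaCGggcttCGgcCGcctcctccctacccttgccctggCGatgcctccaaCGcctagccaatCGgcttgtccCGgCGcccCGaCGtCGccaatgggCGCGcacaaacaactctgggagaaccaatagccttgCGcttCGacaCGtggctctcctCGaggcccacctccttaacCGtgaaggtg
Itgav promoter, chr2:83564442-83564641: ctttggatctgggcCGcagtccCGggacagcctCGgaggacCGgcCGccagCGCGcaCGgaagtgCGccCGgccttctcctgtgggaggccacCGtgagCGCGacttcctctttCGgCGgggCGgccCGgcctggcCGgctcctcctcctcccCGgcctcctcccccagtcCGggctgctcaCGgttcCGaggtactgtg
The second set are intronic and intergenic peaks. Capitals mark TGANTCA, where N is any base, here called AP-1 letters after the Fos and Jun dimers. They also mark the E box CAGCTG, the form preferred by MyoD. The peak of Itga5 intron 2 and the peak 11.8 kb before Itga7 had a Tet2 KO peak. The former has 3 matches to TGANTCA, each with A or T as the middle base. The peak 30.8 kb before Itgb1 also had a Tet2 KO peak. The 200 bp shown there hold neither, although CAGCTG lies elsewhere in that peak.
Itga5 intron 2, chr15:103189132-103189331: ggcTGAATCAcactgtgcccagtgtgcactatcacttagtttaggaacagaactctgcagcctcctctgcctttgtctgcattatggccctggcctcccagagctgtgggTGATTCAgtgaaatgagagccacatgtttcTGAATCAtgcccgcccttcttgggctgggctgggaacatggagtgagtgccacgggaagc
Itga7, 11.8 kb upstream, chr10:128358976-128359175: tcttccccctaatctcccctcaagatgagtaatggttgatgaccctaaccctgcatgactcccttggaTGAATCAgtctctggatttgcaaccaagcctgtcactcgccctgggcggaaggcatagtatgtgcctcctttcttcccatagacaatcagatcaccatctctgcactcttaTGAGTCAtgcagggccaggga
Itgb1, 30.8 kb upstream, chr8:131178687-131178886: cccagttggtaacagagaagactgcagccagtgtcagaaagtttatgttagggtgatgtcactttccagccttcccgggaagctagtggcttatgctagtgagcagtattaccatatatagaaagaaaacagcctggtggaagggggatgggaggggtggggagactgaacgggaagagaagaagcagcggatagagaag
The other 5 lay in WT only.
Itga7, 2.2 kb upstream, chr10:128368576-128368775: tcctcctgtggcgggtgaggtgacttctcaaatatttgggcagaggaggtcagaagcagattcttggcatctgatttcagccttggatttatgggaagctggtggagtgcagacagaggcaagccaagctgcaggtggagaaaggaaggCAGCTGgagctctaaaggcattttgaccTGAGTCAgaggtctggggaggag
Itga6, 46.4 kb upstream, chr2:71537141-71537340: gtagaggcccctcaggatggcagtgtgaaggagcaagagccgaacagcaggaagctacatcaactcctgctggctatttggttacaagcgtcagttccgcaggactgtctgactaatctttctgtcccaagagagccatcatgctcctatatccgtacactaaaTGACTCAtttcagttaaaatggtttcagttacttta
Itga9 intron 3, chr9:118539333-118539532: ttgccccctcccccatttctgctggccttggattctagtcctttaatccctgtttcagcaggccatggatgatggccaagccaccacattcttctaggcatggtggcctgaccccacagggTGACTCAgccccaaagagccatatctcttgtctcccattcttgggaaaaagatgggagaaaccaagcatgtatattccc
Itgb3 intron 1, chr11:104472976-104473175: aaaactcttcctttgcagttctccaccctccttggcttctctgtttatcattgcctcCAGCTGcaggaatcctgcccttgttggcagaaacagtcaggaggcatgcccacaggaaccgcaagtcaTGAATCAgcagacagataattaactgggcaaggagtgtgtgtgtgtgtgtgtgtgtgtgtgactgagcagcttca
Itgb5 intron 9, chr16:33916798-33916997: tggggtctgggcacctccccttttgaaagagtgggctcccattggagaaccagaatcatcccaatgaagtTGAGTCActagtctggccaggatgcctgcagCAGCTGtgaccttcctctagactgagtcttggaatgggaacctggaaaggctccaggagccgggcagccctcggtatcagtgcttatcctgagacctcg
The window before Itga7 and those in Itgb3 and Itgb5 hold both letters. These 5 were picked among peaks with letters: of the 37 intronic and intergenic WT integrin peaks, 4 hold both and 11 neither.

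Around the 10 integrin genes the WT list had 50 peaks and the Tet2 KO list 8, a ratio of 6.25. Over all listed peaks the ratio was 6.72, while the highest peak numbers were 35482 in WT and 8239 in Tet2 KO. Each of the 10 genes had at least 1 WT peak in its window, where 74.3% of all protein-coding genes did. A Tet2 KO peak was present at 4 of 10 genes, Itga3, Itga5, Itga7 and Itgb1, against 31.4% of all genes. Each of the 8 Tet2 KO peaks shared 1 bp or more with a WT peak, as did 96.8% of all Tet2 KO peaks. Of the 50 WT peaks, 8 (16.0%, interval 8.34 to 28.5%) had a Tet2 KO peak, where 14.1% of all WT peaks did. The integrin genes as a group thus had a share near that of the genome. By gene the count ran from 3 of 3 WT peaks at Itgb1 to 0 of 7 at Itgb5, as the plot of peaks per gene shows. The 7 at Itgb5 had a WT fold of 8.52 or less. When all WT peaks were ranked by fold into groups, those below a fold of 8.57 had shares of 1.75, 3.34 and 7.33%. A difference between genes was not tested. Without Itgb1 the ratio was 9.40. In windows from 10 kb upstream to the gene end it was 10. When peaks under a -log10 q of 5 were dropped it was 11.2.

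**Figure D1:**
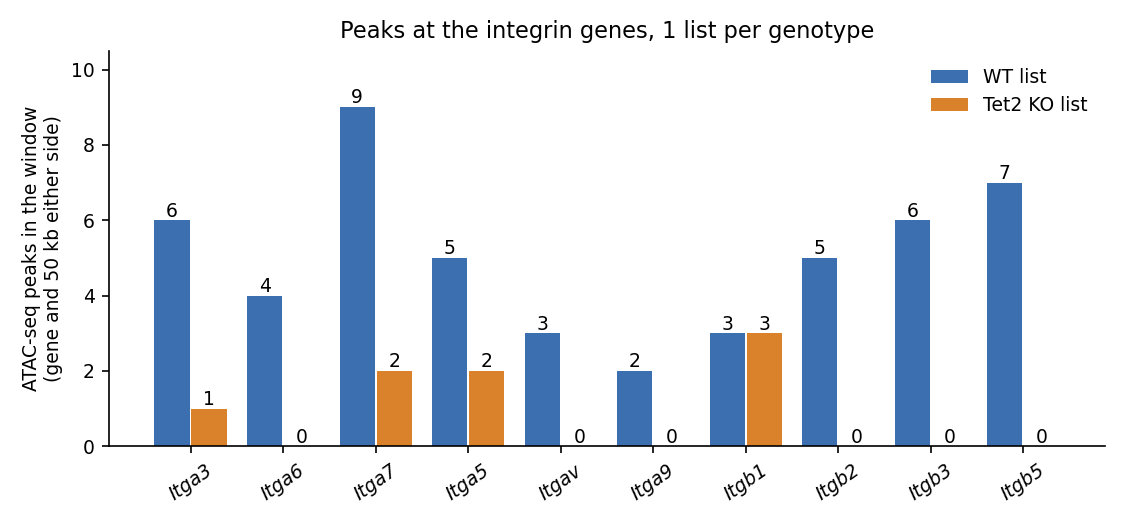
Number of ATAC-seq peaks within each integrin gene and 50 kb on either side (y axis) in the WT list (blue) and the Tet2 KO list (orange), with 1 list per genotype and no error bars. Itgb1 had 3 peaks in both lists, and Itga6, Itgav, Itga9, Itgb2, Itgb3 and Itgb5 had 0 in Tet2 KO.

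Most integrin windows were richer in WT peaks than the window of the median gene. The median was 5 WT peaks per window over the 10 genes and 2 over all 22350 genes. Scaled by window length, the medians were 3.44 and 1.60 WT peaks per 100 kb. The genes spanned a wide range, from 0.507 peaks per 100 kb at Itga9, the longest gene at 294 kb, to 7.23 at Itga7, which exceeded 97.6% of all genes. Many of these peaks had a nearer neighbour: 22 of 50 were closest to the start of an integrin gene, and 28 to that of another protein-coding gene. Of the former 5 of 22 (22.7%, interval 10.1 to 43.4%) had a Tet2 KO peak, and of the latter 3 of 28 (10.7%, interval 3.71 to 27.2%). These intervals overlap.

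By position, 15 WT peaks lay inside the gene body, 23 upstream and 12 downstream. A Tet2 KO peak was present at 1 of the 15 inside, 6 of the 23 upstream and 1 of the 12 downstream. The 6 upstream lay before Itgb1, Itga7 and Itga5 only. Over all WT peaks 14.1% had a Tet2 KO peak, and no share by such position was taken over all genes. By annotation, 20 of the WT integrin peaks lay in introns, 17 in intergenic sequence, 3 in exons and 10 at promoters. Promoters are here the 1000 bp before and the 100 bp after an annotated start. The intronic and intergenic peaks, called distal below, made up 74.0% of the integrin peaks (interval 60.4 to 84.1%) and 69.3% of all WT peaks. Of the distal integrin peaks 5 of 37 (13.5%, interval 5.91 to 28.0%) had a Tet2 KO peak, against 11.0% of all distal WT peaks. Of the promoter peaks 3 of 10 did, against 22.5% of all promoter WT peaks. Only 3 of these 10 promoters belonged to integrin genes. The other 7 were those of Pdk2, Pdk1, Cd63, Bloc1s1 with Rdh5, Pttg1ip, Myl4 and Ctdspl.

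**Figure D2:**
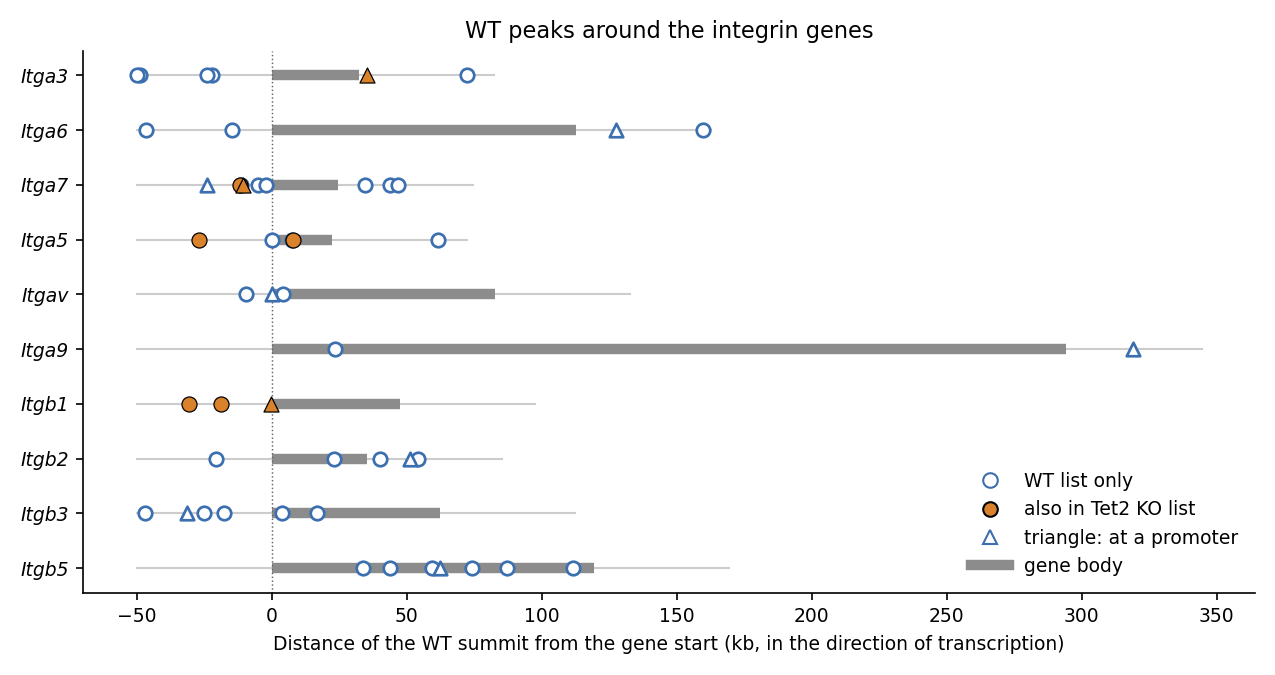
Summits of the 50 WT peaks by distance from the start of each integrin gene in kb, in the direction of transcription (x axis), 1 row per gene. Grey bars are gene bodies, thin lines the 50 kb flanks, triangles promoter peaks, open symbols peaks of the WT list only and filled symbols the 8 peaks with a Tet2 KO peak, which include each of the 3 at Itgb1 and 0 of the 7 inside Itgb5.

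The laminin-binding alpha genes had 19 WT and 3 Tet2 KO peaks, and none of these 22 lay in their gene bodies. Itga7 (chr10:128370869-128395333, plus strand) encodes alpha 7, the main laminin-binding alpha subunit of skeletal muscle. Its window held 9 WT peaks, 6 upstream and 3 downstream. The closest, shown above, lay 2.2 kb before the start, with a fold enrichment of 6.99 over the local background and 26 fragments at the summit. This is the only one of the 9 that was nearest to the start of Itga7. The 2 Tet2 KO peaks in the window lay at the neighbours. The peak in an intron of Rdh5, a retinol dehydrogenase gene, 11.8 kb before Itga7, had a fold of 6.34 in WT and 4.69 in Tet2 KO, from 47 and 24 fragments. The shared promoter of Rdh5 and Bloc1s1, which encodes a subunit of a lysosomal trafficking complex, had a fold of 3.93 in WT and 3.60 in Tet2 KO, from 28 and 18 fragments. The peak of highest -log10 q in the window (21.5) was the promoter of Cd63, a tetraspanin, 24.1 kb before Itga7, with a fold of 10.8 and no Tet2 KO peak. No peak was listed at the Itga7 promoter in either list. Between the WT peaks on either side of the Itga7 start 3 peak numbers are absent, so a peak called there and not listed cannot be told apart from none.

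Itga3 (chr11:94905788-94938115, minus strand) encodes alpha 3, a laminin receptor subunit best known from epithelia. It had 6 WT peaks and 1 in Tet2 KO, and each of the 6 was nearer to another gene. The strongest lay at the promoter of Pdk2, a pyruvate dehydrogenase kinase gene, with a fold of 12.9 in WT and 5.16 in Tet2 KO, from 28 and 15 fragments. This pair had the largest WT to Tet2 KO ratio of the 8, 2.50. The other 5 had a fold between 5.90 and 9.23 in WT. Of these, 4 lay between 22.0 and 49.9 kb upstream, on the side of Dlx3, a homeobox gene. Itga6 (chr2:71583673-71696473, plus strand), whose alpha 6 chain pairs with beta 1 or beta 4, had 4 WT peaks and 0 in Tet2 KO. They had 9 to 15 fragments, and the highest, 46.4 kb upstream, had a fold of 8.89. The WT list runs from a peak 14.8 kb before Itga6 to the Pdk1 promoter 127.5 kb after its start with no peak number absent, so no peak was called at Itga6 itself in this WT library.

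The alpha subunits that bind RGD ligands had 8 WT peaks and 2 in Tet2 KO, both at Itga5. Itga5 (chr15:103174720-103197194, minus strand) encodes alpha 5, the fibronectin receptor subunit. Of its 5 WT peaks 4 were nearest to its own start. The peak in intron 2, 8.0 kb after the start, had the highest -log10 q of the 50 (26.4), with a fold of 12.1 in WT and 7.43 in Tet2 KO, from 34 and 21 fragments. The peak 27.0 kb upstream had the highest fold of the 50, 13.4 in WT, and 7.85 in Tet2 KO, from 26 and 19 fragments. Both of these stayed among the stronger Tet2 KO peaks: 87.1% and 91.2% of the Tet2 KO list had a lower fold. Between them the Tet2 KO list skips no number, so nothing was called in this library at the WT peaks in intron 1 (fold 6.94, 19 fragments) and in exon 1 (fold 6.03, 11 fragments). The exon 1 peak lay 242 bp after the start, outside the promoter window, and holds 18 CpG sites and the letters TGACTCA. The remaining peak, 61.5 kb after the start and nearest to Gpr84, had a fold of 9.76 in WT.

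Itgav (chr2:83564554-83647073, plus strand) encodes alpha v, which pairs with several beta chains and binds vitronectin and fibronectin. Its 3 WT peaks lay 9.5 kb upstream (fold 8.70, 15 fragments), at its own promoter (5.49, 12 fragments) and in intron 1, 4.2 kb after the start (8.64, 20 fragments). The promoter peak was the weakest of the 3, with only 9.75% of the WT list at a lower fold. The Tet2 KO list had 0 peaks in the window. Itga9 (chr9:118515808-118810121, plus strand), for alpha 9, had 2 WT peaks and 0 in Tet2 KO. One of these lay in intron 3, with a fold of 6.06 and 9 fragments. The other was the promoter of Ctdspl, a small phosphatase gene, with a fold of 4.89 and 8 fragments, the fewest of the 50 together with a peak near Itgb3.

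The beta genes had 21 WT and 3 Tet2 KO peaks, and the 3 were all at Itgb1 (chr8:131209554-131257100, plus strand). Its promoter was the only one of an integrin gene with a Tet2 KO peak (1 of 10, where 7.92% of all genes had one), and a WT promoter peak was present at 3 of 10, where 30.3% of all genes had one. The promoter peak had a fold of 9.75 in WT and 5.42 in Tet2 KO, from 22 and 12 fragments. The peak 18.8 kb upstream had a fold of 8.33 and 4.61, from 17 and 10 fragments. The peak 30.8 kb upstream had a fold of 10.9 and 8.29, from 35 and 21 fragments, and 94.0% of the Tet2 KO list had a lower fold. The WT peaks of Itgb1 were wide, between 430 and 475 bp, against a median of 230 bp over the 50.

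The other beta genes had no Tet2 KO peak. Itgb5 (chr16:33829751-33949239, plus strand) encodes the beta chain of a vitronectin receptor with alpha v. It had 7 WT peaks, each inside the gene, between 33.7 and 111.8 kb after its start, with a fold of 4.84 to 8.52 and 11 to 17 fragments. The highest -log10 q, 10.9, was found in intron 8 (fold 8.52, 14 fragments) and in intron 11 (fold 8.06, 16 fragments). The peak counted at its promoter was at an annotated internal start of a processed transcript, 62.2 kb into the gene, with 3 CpG sites. At the start of the gene itself no WT peak was listed, but 1 WT peak number is absent between the listed peaks around it. Itgb3 (chr11:104469370-104531790, plus strand), for the beta chain of platelet and endothelial receptors, had 6 WT peaks, with a fold of 5.08 to 7.82. Of these, 2 lay inside the gene, in introns 1 and 2, and 4 upstream, nearest to Myl4, which encodes an embryonic and atrial myosin light chain and whose promoter peak had the highest -log10 q of the window (10.4). No WT number is absent between the peaks 17.8 kb before and 3.7 kb after the Itgb3 start, so no peak was called at its promoter in this WT library. Itgb2 (chr10:76992997-77028453, plus strand) encodes the beta chain of leukocytes, which the sort against CD45 and CD11b was to remove. Its window held 5 WT peaks, 1 in the gene (intron 8, fold 6.90, 11 fragments) and 3 downstream, nearest to Pttg1ip. The strongest lay 40.2 kb after the start, with a fold of 10 and 20 fragments. No Itgb2 promoter peak was listed, but 1 WT peak number is absent between the listed peaks around its start. A peak called there and not listed cannot be told apart from none. Of 5 leukocyte markers 0 had a promoter peak, while 5 of 5 had a WT peak within 50 kb. Of all genes 30.3% had a WT promoter peak and 74.3% a WT peak within 50 kb.

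At the 8 shared peaks the fold enrichment was higher in WT at each. The WT to Tet2 KO ratio of the folds had a median of 1.67 and ran from 1.09 at the Bloc1s1 promoter to 2.50 at the Pdk2 promoter. Over all 3633 shared WT peaks the median was 1.89, with quartiles of 1.61 and 2.22, and 98.1% were higher in WT. Where several Tet2 KO peaks overlapped, these ratios take the first, while the figure takes the one of highest fold. The fold is relative to the local background at the peak in its own library. This local background was higher in WT at the Rdh5 intron peak (6.57 against 4.34 fragments) and the Bloc1s1 promoter (6.38 against 4.28). It was also higher in WT at the peak 30.8 kb before Itgb1 (2.31 against 1.65). At the other shared integrin peaks it was higher in Tet2 KO, from 1.40 against 1.36 at the Itgb1 promoter to 2.10 against 1.25 at the Pdk2 promoter. The part of the background in these ratios was not tested. The shared integrin peaks had a median of 28 fragments and a fold of 10.3 in WT, and the 42 that were not shared 14.5 fragments and a fold of 6.97. When the WT list was ranked by fold into 5 equal groups, the strongest group held 6 integrin peaks, of which 4 had a Tet2 KO peak, and 41.9% of all WT peaks of that group had one. The other 4 groups held 14, 11, 12 and 7 integrin peaks from the weakest up, with 1 shared in each, where the share over all WT peaks was 1.75, 3.34, 7.33 and 16.1%. Of the 42 WT integrin peaks without a Tet2 KO peak, 4 lay where the Tet2 KO list skips no number. These are the Itga5 peaks in intron 1 and exon 1, the Cd63 promoter and a peak 11.5 kb before Itga7. For the other 38 a Tet2 KO peak called but not listed cannot be told apart from none. Over the genome 16.3% of the 22142 WT peaks without a Tet2 KO peak lay where no number was skipped.

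**Figure D3:**
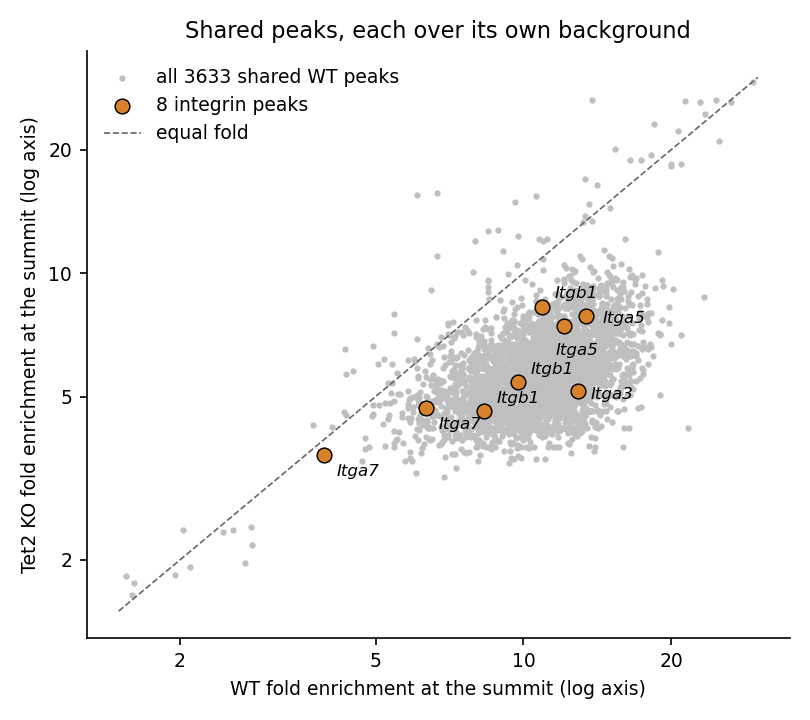
Fold enrichment at the summit of shared peaks in the WT list (x axis) and in the Tet2 KO list (y axis), both on log axes, where the highest fold was taken if several Tet2 KO peaks overlapped. Grey points are all 3633 shared WT peaks, orange points the 8 integrin peaks, named by gene, and the dashed line marks equal fold. All 8 lie below the line, as do most of the other peaks.

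The distal integrin peaks were searched for short motifs within 200 bp around the summit, on both strands. AP-1 letters (TGANTCA) were found in 19 of 37 (51.4%, interval 35.9 to 66.6%), against 44.7% of all 17866 distal WT peaks. The forms TGACTCA and TGAGTCA were not counted apart from TGAATCA and TGATTCA. The E box CAGCTG was found in 11 (29.7%, interval 17.5 to 45.8%), against 39.7%. Both letters were present in 4 distal integrin peaks, and 11 had neither. E boxes of any kind (CANNTG, which includes CAGCTG) were found in 59.5% (interval 43.5 to 73.7%), against 80.4%. RUNX letters (TGTGGT or ACCACA) were found in 13.5% (interval 5.91 to 28.0%), against 31.1%. For any E box and for RUNX, of the 7 motifs searched, the share of all distal peaks lies above the interval of the integrin peaks. TEAD letters (GGAATG or CATTCC) were at 21.6% against 20.4%, the E boxes CACCTG or CAGGTG at 10.8% against 11.2%, and the GC box (GGGCGG or CCGCCC) at 8.11% against 8.05%. The integrin peaks number 37 and neighbours in a window are not independent, so these shares are descriptions with no test.

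**Figure D4:**
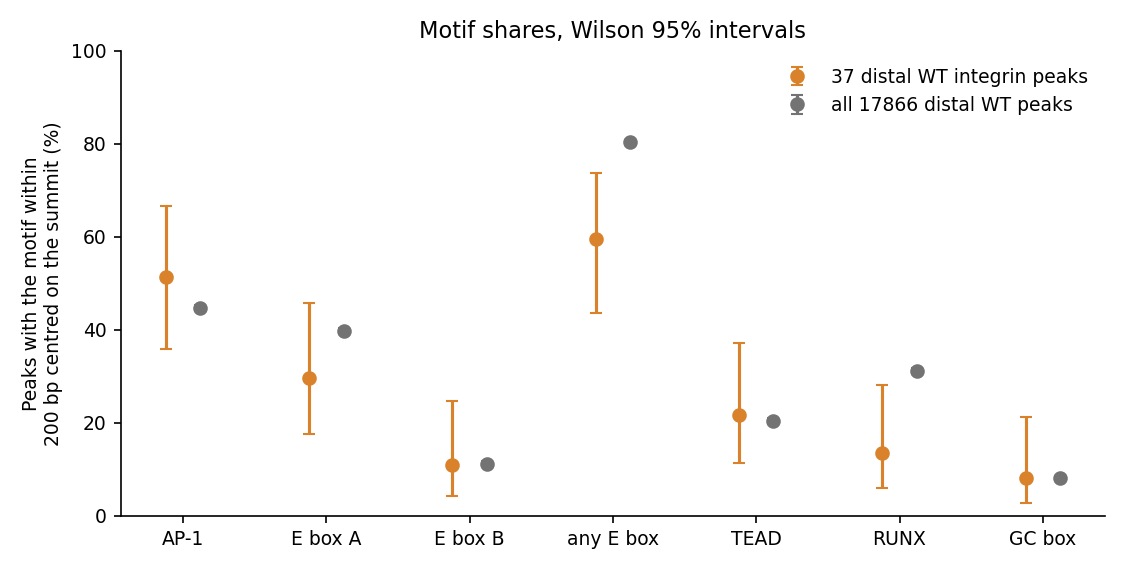
Share of distal WT peaks with each motif within 200 bp centred on the summit, in percent (y axis), for the 37 integrin peaks (orange) and all 17866 (grey, intervals smaller than the points). Bars are Wilson 95% intervals, E box A is CAGCTG and E box B is CACCTG or CAGGTG, and the integrin shares of any E box and of RUNX lie below those of all distal peaks.

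The motifs were spread unevenly over the genes. Counted per gene over all its WT peaks, promoter and exon peaks included, AP-1 letters were in 5 of 7 of Itgb5. They were in 5 of 9 of Itga7 and 3 of 4 of Itga6, but in 1 of 6 of Itga3 and 1 of 5 of Itgb2. Over all WT peaks 34.1% had them. CAGCTG was in 4 of 6 peaks of Itgb3, 3 of 6 of Itga3, 3 of 9 of Itga7 and 3 of 5 of Itgb2. It was in 0 peaks of Itga5, Itga6, Itga9 and Itgav, and in 33.2% of all WT peaks. At Itgb1 neither was found within 200 bp of the WT summit in any of the 3 peaks, but this depended on the summit: around the Tet2 KO summits CAGCTG was found 30.9 kb upstream and AP-1 letters 18.7 kb upstream, both inside the WT peaks. None of the 11 distal integrin peaks with CAGCTG around the WT summit had a Tet2 KO peak, and a count of 0 allows a share of up to 27.3% (3 counts of 11, not a Wilson bound). Over all distal WT peaks with CAGCTG the share was 11.8%. Of the 19 distal integrin peaks with AP-1 letters around the WT summit, 2 had a Tet2 KO peak, those in Itga5 intron 2 and before Itga7, against 11.1% of all distal WT peaks with them. When the whole WT peak was searched, CAGCTG was in 13 distal integrin peaks, of which 1 (Itgb1) had a Tet2 KO peak (7.69%, interval 1.37 to 33.3%), against 14.3% of all distal WT peaks with it. AP-1 letters were then in 20, of which 3 (Itga5, Itga7 and Itgb1) had a Tet2 KO peak (15.0%, interval 5.24 to 36.0%), against 13.2%. The shared integrin peaks had a median of 2.50 CpG sites in 200 bp (range 0 to 20) and the others 3.00 (range 0 to 23), where all shared WT peaks had a median of 6.00 and all others 3.00.

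The rest of the integrin system was read in the same windows. The other 16 integrin subunit genes had 61 WT and 9 Tet2 KO peaks, and 14.8% of the WT peaks (interval 7.96 to 25.7%) had a Tet2 KO peak. Itgb6, the epithelial beta chain, had the most, 13 in WT and 1 in Tet2 KO. A Tet2 KO peak was also present at Itga8, Itga10, Itga11, Itgal, Itgam and Itgae, with 1 or 2 each. Itgae, Itga2b, Itgb4 and Itgb7 had 6 WT peaks each. Of the 16, 3 had a WT peak at their own promoter (Itgb6, Itga2b, Itgb8), where 30.3% of all genes did, and 0 had one in Tet2 KO, where 7.92% did.

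The 16 adhesion partners, which link integrins to actin and to signalling, had 105 WT and 25 Tet2 KO peaks, and 21.0% of the WT peaks (interval 14.3 to 29.7%) had a Tet2 KO peak. Their own promoters had a WT peak in 10 and a Tet2 KO peak in 7 of 16 genes, where 30.3% and 7.92% of all genes did. At Cd151 only the Tet2 KO list had a peak centred in the promoter. Of the 6 WT peaks in its window 2 overlapped a Tet2 KO peak, and whether that peak was the promoter peak was not tested. The 7 were Vcl (vinculin), Ilk (integrin-linked kinase), Lims1 (PINCH1, a partner of that kinase), Zyx (zyxin), Actn1 (alpha-actinin 1), Bcar1 (the adaptor p130Cas) and Cd151 (a tetraspanin partner of laminin receptors). Tln2 (talin 2), Pxn (paxillin), Vcl and Ptk2 (focal adhesion kinase) had 10 WT peaks each, and 1, 3, 1 and 2 in Tet2 KO. Tln1, Parva and Itgb1bp1 also had Tet2 KO peaks in their windows, while Fermt2, Src and Itgb1bp2 had 0. The 12 ligand genes had 51 WT and 9 Tet2 KO peaks (17.6%, interval 9.57 to 30.3%). The laminin gene Lama5 had 9 WT and 4 Tet2 KO peaks, Lamc1 7 and 1, Lamb2 4 and 1, Vtn 3 and 2 and Fn1 1 and 1. Vcam1 and Tnc, ligands of alpha 9, had 6 WT peaks each and 0 in Tet2 KO. The interval of each list covers 14.1%, the share of all WT peaks, except that of the adhesion partners, whose lower bound is 14.3%. The lists were not split into promoter and distal peaks, of which 22.5% and 11.0% had a Tet2 KO peak over all WT peaks.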

How the data were processed

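ATAC-seq reads of 150 bp from 4 myoblast samples, 2 per genotype, were trimmed by the authors, aligned to mm9 with Bowtie2, filtered on mapping quality and freed of duplicates. MACS2 then called peaks per sample (versions are not given in the sources used here). The fold enrichment the authors deposited is a ratio: summit signal relative to the library's own local background, with 1 added to each. The -log10 p and -log10 q values the authors deposited belong to the summit. Total read numbers are not known. Fragment numbers at a summit and around it were solved from fold and -log10 p with MACS2's Poisson model (largest error 0.000153 in -log10 p). For 55 WT and 1 Tet2 KO peaks, 0 of them at integrin genes, more than 1 solution was possible.

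Gene windows, promoters and exons came from GENCODE M1 on mm9, in the order promoter, exon, intron, intergenic, at the peak centre. Peaks were shared when they overlapped by at least 1 bp. The summit window of 200 bp was searched for exact letters. Intervals are Wilson 95% intervals. With 1 list per genotype no test between genotypes was made. The overlap and the fragment solver were tested on simulated data.

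The genes and the other lists were chosen with earlier results of these data known. By rule, the text names all 10 genes, each shared peak, the WT peak of highest -log10 q of each gene, and of the other lists the genes with a Tet2 KO peak and the 3 with most WT peaks. Genes named beyond it (Dlx3, Gpr84, the genes at the other promoters, Vcam1, Tnc, Fermt2, Src, Itgb1bp2, Itga2b, Itgb4, Itgb7, Itgb8) were picked after their values were seen, as was the sequence of the Itgav promoter. Sequences were otherwise those of the strongest WT peak of a subunit class, of a shared promoter of these genes and of distal peaks with AP-1 or E box letters. A peak in overlapping windows was counted once per list. Of 6 leukocyte markers 5 were found in the annotation. Alternatives were stricter limits, other windows, overlaps, promoters and motif windows, and leaving out a gene. The tools were pysam 0.24.0, scipy 1.17.1, pandas 2.3.3, numpy 2.4.6 and matplotlib 3.10.9 in Python 3.11.15. mRNA-seq and methylation data are not used here.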

Additional observations from a re-analysis of the deposited data

How the results depend on the processing

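Of 57 values under an alternative 7 moved. The WT to Tet2 KO ratio of 6.25 was 11.2 at a -log10 q of at least 5, 10 from 10 kb upstream to the gene end, and 9.40 without Itgb1, and lay between 4.40 and 9.0 in its other alternatives. The 4.40 came from the 22 WT and 5 Tet2 KO peaks nearest to an integrin gene start, an alternative chosen after seeing the data. The share of WT integrin peaks with a Tet2 KO peak, 16.0%, ran from 8.89% to 22.7% over its alternatives and stayed within its interval. The promoter share of 20% was 6.98% without the promoters of other genes and 34.0% with promoters of 3000 bp on either side. The share of distal peaks with the E box CAGCTG, 29.7%, was 16.2% within 100 bp and 59.5% when CANNTG was counted, and by construction a narrower window or a wider motif gives these directions. The AP-1 share of 51.4% stayed within its interval, between 43.2% and 59.5%. Searching the whole WT peak, chosen after seeing the data, gave 54.1% for AP-1 and 35.1% for CAGCTG. Of 60 gene counts in other windows 22 changed over 1.5 times (18 down, 4 up), and in 0 of these windows did a gene have more Tet2 KO than WT peaks. No paired analysis was possible because no label ties the lists, 1 per genotype, to replicate numbers.

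The counts rest on 1 library per genotype, of unequal background, and on lists that skip peak numbers, the Tet2 KO list a larger part of them. Differences between genotypes in these counts cannot be told apart from differences between the libraries.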
